A study of Mus musculus with 5 samples.

Results

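The 27 genes described here read in the lowest 40% of array features in control pro-B cells and above the array median after the deletion of Ebf1, by their brightest probe. They were chosen from the array values themselves. Each gene with its own symbol was represented by its brightest probe, taken as the mean over all arrays of the log2 intensity minus the array's 75th percentile. A gene is called dark on an array when its intensity lay at or below the 40th percentile of all features, and lit when it lay above the median. Genes were kept if they were dark on both control arrays and lit on all 3 deleted arrays. Of 19087 genes, 30 met these limits, and H2-Ea, Wfdc18 and Cd3g were left out by name. Because the choice used the difference between the groups, the differences below are descriptions and carry no test.

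Pro-B cells, the B-lineage precursors that rearrange their heavy chain genes, were cultured from mouse fetal livers taken at 16.5 dpc, with IL-7 on a layer of OP-9 stroma. RNA of 5 such cultures was read on 1-colour Agilent arrays. Every culture carried ER-Cre, a recombinase that 4-hydroxytamoxifen switches on; the sources used here do not name its promoter. All were exposed to 4-hydroxytamoxifen for 24 hours and kept for 4 more days. The 2 control arrays (control 3 and control 6) have the genotype Ebf+/fl, with 1 floxed allele, and were treated in the same way. The 3 deleted arrays (deleted 4, deleted 5 and deleted 7) have the genotype Ebf fl/fl. A first number in the sample titles is 111 for both controls and 93 for every deleted sample, and its meaning is not stated, so genotype cannot be told apart from it. Separate embryos are not stated for the samples within a group, so p-values measure only the spread between these samples, which may be technical.

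Ebf1 is a transcription factor that works with E2A and Pax5 to switch on B-lineage genes, and it is known to restrain genes of other blood lineages. A gene that gives only background signal in pro-B cells may be inactive there or simply below what its probe can detect. The array does not separate these cases. In bulk RNA, fewer cells of a type and less RNA per cell likewise cannot be told apart.

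The arrays were alike in scale. The 40th percentile lay at intensities between 7.57 and 9.60, the median between 19.0 and 25.3, and the sum of intensities between 66780400 and 79527100. Arrays of a group correlated across the tested genes with Pearson's r from 0.979 to 0.982, against 0.926 to 0.959 between groups. The Ebf1 probe for AK036716 read 143 and 170.0 in controls and 21.3, 9.48 and 26.5 in deleted cells, whereas the brightest Ebf1 probe read 2172 and 2374 against 1655, 1552 and 2069.7. The remaining Ebf1 probe, for AK042875, was not lower, at 36.4 and 47.9 in controls and 50.5, 44.4 and 62.1 in deleted cells. The position of these probes with respect to the floxed segment was not determined. Cd79a, a signalling chain of the B-cell receptor, was read between 833 and 2260 on all arrays, so this B-lineage mark was present in both groups. On the early B cell list that holds Cd79a, 0 of 19 tested genes were higher and 13 lower, beside 8.58% and 8.74% of all tested genes. The median log2 difference of that list was -1.52. Across 13419 tested genes, limma called 1151 higher and 1173 lower in deleted cells, and 669 higher and 1062 lower without scaling between arrays, where the median log2 difference of all tested genes was -0.04 in place of 0.10.

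Upstream sequences are shown for 4 of the genes, to let the 3 matches to an interferon regulatory factor (IRF) repeat and the gene with the largest change be seen. They are the 250 bases before an annotated start, from RefSeq on GRCm38.p6. Eps8l1 and Jhy have 3 annotated starts each, of which only the 1 that holds the marked match is shown. Capitals mark the IRF repeat in the Tgfbi, Eps8l1 and Slfn9 sequences and the AP-1 letters in the Jhy sequence.
Tgfbi, chr13:56609336-56609585, plus strand: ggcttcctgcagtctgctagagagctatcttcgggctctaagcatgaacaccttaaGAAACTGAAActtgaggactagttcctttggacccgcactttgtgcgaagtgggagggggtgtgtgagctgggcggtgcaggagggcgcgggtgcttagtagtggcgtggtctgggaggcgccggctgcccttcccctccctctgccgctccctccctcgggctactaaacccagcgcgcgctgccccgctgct
Eps8l1, chr7:4460447-4460696, plus strand: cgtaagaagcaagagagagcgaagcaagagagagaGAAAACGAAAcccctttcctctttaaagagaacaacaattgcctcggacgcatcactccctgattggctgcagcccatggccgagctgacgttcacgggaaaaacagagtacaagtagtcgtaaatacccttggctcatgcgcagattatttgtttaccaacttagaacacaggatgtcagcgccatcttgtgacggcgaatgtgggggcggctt
Slfn9, chr11:82991831-82992080, minus strand: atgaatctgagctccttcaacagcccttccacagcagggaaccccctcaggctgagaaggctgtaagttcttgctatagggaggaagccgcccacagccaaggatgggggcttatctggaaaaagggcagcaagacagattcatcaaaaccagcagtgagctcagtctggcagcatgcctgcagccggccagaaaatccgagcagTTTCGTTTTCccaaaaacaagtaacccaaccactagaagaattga
Jhy, chr9:40964554-40964803, minus strand: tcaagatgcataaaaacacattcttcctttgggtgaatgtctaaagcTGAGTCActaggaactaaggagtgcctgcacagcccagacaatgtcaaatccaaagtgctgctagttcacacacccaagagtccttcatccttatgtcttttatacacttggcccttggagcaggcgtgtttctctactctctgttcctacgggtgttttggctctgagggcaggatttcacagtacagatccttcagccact

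Being dark in controls was common and becoming lit was rare. Of the 19087 genes 5473 were dark on both control arrays, and 4374 of these were dark on all 5 arrays. Among the 5473, 5272 were lit on no deleted array, 151 on 1, 20 on 2 and 30 on all 3. The opposite pattern, lit in both controls and dark on all 3 deleted arrays, was met by 44 genes. Single arrays crossed the same limits often: 61 genes were dark in control 3 and lit in control 6, and 192 the other way round. Within the deleted group these counts ran from 72 to 108 per pair of arrays, and from control to deleted arrays from 118 to 195. The larger of the counts between the controls thus lay within the range seen from control to deleted arrays. From control 6 alone, the array dark in that count, it exceeded the 139, 173 and 118 genes lit in deleted 4, 5 and 7.

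As every control value lay in the dark range, each change has only a lower limit. It is the mean of the 3 deleted arrays on the scaled log2 scale, minus the mean of the control arrays' 40th percentiles. The limit ranged from 2.93-fold to 336-fold with a median of 6.21-fold; 12 genes exceeded 8-fold and 5 stayed under 4-fold. Since the floor is shared, the order of the limits also follows how bright each probe is. The 27 genes all passed limma's threshold, beside 8.58% of the tested genes called higher, and nothing is read from this because the rule used the same contrast.

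**Figure D1:**
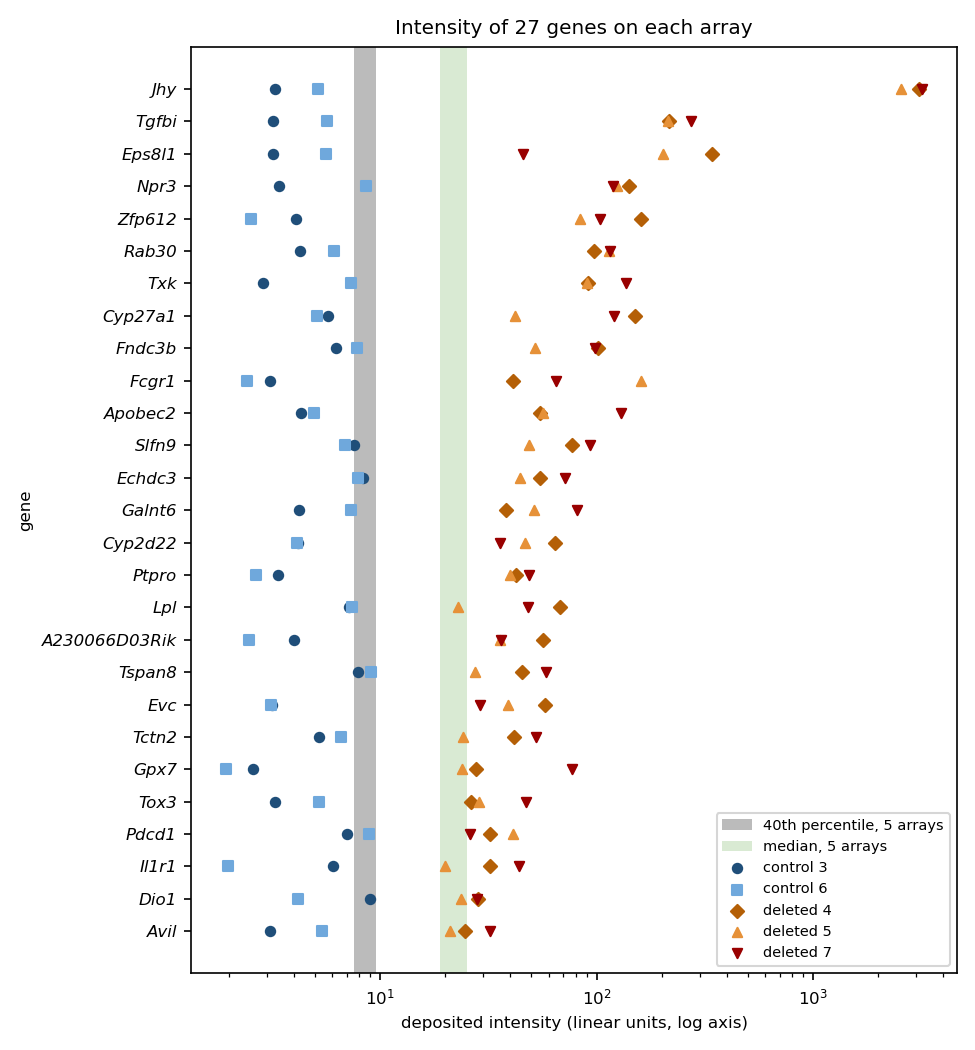
Deposited intensity (log axis) of the 27 genes on each of the 5 arrays, ordered by the lower limit of the change, with bands for the range of the 40th percentile and of the median over the arrays. By choice, controls lie at or below their own array's 40th percentile and deleted arrays above their own median. Jhy stands apart, with 2554 as its lowest deleted intensity.

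Jhy had by far the largest lower limit of the 27. In mice this gene is linked to hydrocephalus and to the cilia of ependymal cells. Its probe read 3.27 and 5.18 in controls and 3087, 2554 and 3190.2 in deleted 4, 5 and 7, at least 336-fold higher. The deleted arrays lay within 1.13-fold of each other after scaling, and Jhy was the only one of the 27 above the 75th percentile of features on all of them. A second Jhy probe read 2.65 and 1.92 in controls and 48.7, 59.1 and 58.4 in deleted cells, so it too went from dark to lit. Its deleted readings were far below those of the brightest probe, and the 336-fold limit holds for the brightest probe only.

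The genes are grouped below by known role, a grouping made after their names were seen. Evc and Tctn2 belong, like Jhy, to the biology of cilia, which are projections of the cell surface. Hedgehog signals pass through the antenna-like kind, whereas Jhy was linked above to the cilia of ependymal cells. Evc is a protein of the ciliary base that takes part in hedgehog signalling. Its brightest probe read 3.16 and 3.14 in controls and 57.7, 38.8 and 28.9 in deleted cells, at least 4.61-fold higher. Both further Evc probes stayed dark on all 5 arrays, so the change rests on 1 probe. Tctn2, a tectonic protein of the ciliary transition zone, read 5.23 and 6.59 against 41.6, 24.2 and 52.5, at least 4.31-fold higher. Their direct partners were measured above the dark range in controls and were higher as well. Evc2, which forms a complex with Evc, had a log2 difference of 2.04 (SE 0.34, limma adjusted p = 0.0115), from 13.7 and 15.5 to 77.3, 44.3 and 47.2. Tctn1 had a log2 difference of 1.88 (SE 0.22, limma adjusted p = 0.0038), from 194 and 164 to 746, 520 and 557. Tctn3 stood at 0.20 (SE 0.21) without passing. Smo, the signal transducer of the hedgehog pathway, was lower, with a log2 difference of -2.15 (SE 0.35, limma adjusted p = 0.0105), from 1087 and 1498 to 197, 189 and 488. The Evc2 call was lost without control 3 (limma adjusted p = 0.0678) and the Smo call without control 6 (0.0521) or deleted 5 (0.0501), and the means of their probes gave 1.39 and -1.32. On the cilia list, 11 of 27 genes were tested. Without Jhy, whose direction the rule fixed, 0 of 10 were higher and 2 lower, beside 8.58% and 8.74% of all tested genes, with a median log2 difference of -0.67 against 0.10 over all tested genes. The lower genes were Dnah1 and Ift81, whose calls were lost under 2 and 10 of the alternatives.

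Eps8l1 and Avil bind or regulate actin. Eps8l1, an adaptor related to Eps8, read 3.22 and 5.63 in controls and 343, 202 and 45.5 in deleted cells. Deleted 7 lay far below the other arrays, an 8.33-fold range after scaling that was the widest of the 27. The lower limit was 16.8-fold, and 32.5-fold without deleted 7. Its relative Eps8 had a log2 difference of -0.94 (SE 0.22, limma adjusted p = 0.0329), a call lost under 7 of the alternatives. Avil encodes advillin of the gelsolin family and had the smallest limit, at least 2.93-fold, with readings of 3.09 and 5.39 against 24.7, 21.1 and 32.1. All deleted readings of Avil were just above the array medians. Its relative Scin, bright in controls at 1808 and 632, read 9.78, 8.63 and 22.4 in deleted cells, a log2 difference of -6.30 (SE 0.53, limma adjusted p = 0.0015) that was -5.50 without control 3 and -7.10 without control 6. Gsn, Svil, Flii and Capg had log2 differences from -0.32 to 0.67 and did not pass.

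Immune receptors and signalling proteins were a further group. Txk is a Tec-family kinase known from T and NK cells. It read 2.88 and 7.32 in controls and 91.5, 90.7 and 136 in deleted cells, at least 11.9-fold higher, and its second probe was dark in controls and read 16.3, 13.7 and 19.4 in deleted cells, above the 40th percentile but not the median. Tec, the next gene on the chromosome and of the same family, was bright in both groups. Its log2 difference was 1.01 (SE 0.20, limma adjusted p = 0.0191), a call lost without control 3 (0.104), without control 6 (0.0780) and without scaling (0.0860). Btk, the family member of the B-cell receptor pathway, had a log2 difference of -0.15 (SE 0.23), and Bmx was dark on all arrays. On the T cell list 18 genes were tested, 3 were higher and 5 lower, beside 8.58% and 8.74% of all tested genes, with a median log2 difference of -0.74. Of the 3, Cd3g and Cd28 were dark in both controls and passed the filter only through the deleted arrays. The list's summed level, in units of the array's 75th percentile, was 10.6 to 12.4 in controls and 9.74 to 14.1 in deleted cells, and 7.59 to 8.89 against 2.71 to 3.58 without its brightest gene, Cd2. On the NK and innate lymphoid list 14 were tested, 5 were higher and 3 lower, beside the same 8.58% and 8.74%, with a median of 0.50, and 9 of the 29 were dark on all arrays. Its summed level was 7.67 to 11.2 in controls and 24.8 to 31.7 in deleted cells, and 7.48 to 10.4 against 14.3 to 18.0 without its brightest gene, Ccl3. The part of such cells in the Txk reading was not tested.

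Fcgr1 encodes the high-affinity receptor for IgG found on monocytes and macrophages. It read 3.10 and 2.42 in controls and 40.9, 160.3 and 64.6 in deleted cells, at least 8.62-fold higher. Deleted 5 was the highest array, and without it the limit was 5.35-fold. A second Fcgr1 probe was dark in deleted 4 and deleted 7 and read 14.2 in deleted 5. The other Fc gamma receptor genes Fcgr2b, Fcgr3 and Fcgr4 and their shared chain Fcer1g had log2 differences from -0.39 to -0.11, none of which passed.

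Markers of macrophages were read on the same arrays. Of the 25 genes of that list 14 were tested. Without Fcgr1, chosen for being higher, 1 of 13 was higher, Apoe, and 2 were lower, Lyz1 and Itgam, beside 8.58% and 8.74% of all tested genes, while 7 were dark on all 5 arrays. The median log2 difference of these 13 markers was 0.44. The summed level of the list, in the same units, was 6.99 to 18.7 in controls and 45.4 to 76.3 in deleted cells. Without Apoe, a lipid carrier of many cell types, it was 5.28 to 17.4 in controls and 3.51 to 3.85 in deleted cells. Adgre1, which encodes the macrophage protein F4/80, read 3.07 and 2.14 in controls and 20.9, 6.02 and 9.23 in deleted cells, below the median of every array, and C1qa, a complement chain, read at most 10.5. The calls of Lyz1 and Itgam were lost under 6 and 9 of the alternatives. The part of such cells in the Fcgr1 reading was not tested.

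Pdcd1 encodes PD-1, an inhibitory receptor of lymphocytes. It read 7.04 and 8.84 in controls and 32.3, 40.9 and 26.1 in deleted cells, at least 3.74-fold higher. Control 6 lay close to the dark limit and deleted 7 close to the median. Cd274, the gene of its ligand PD-L1, was lit in both groups and had a log2 difference of 1.35 (SE 0.26, limma adjusted p = 0.0181), lost without control 3 (0.113). Pdcd1lg2, the other ligand gene, had a log2 difference of 1.21 (SE 0.68, limma adjusted p = 0.266), with readings of 133 in control 3 and 25.9 in control 6. Of 23 tested Fc and paired receptor genes on the list that holds Pdcd1 and Fcgr1, 8 were higher and 1 was lower. Without Pdcd1 and Fcgr1, whose direction the rule fixed, 6 of 21 were higher and 1 lower, against 8.58% and 8.74% of all tested genes, and 1 of the 6, Lag3, was dark in both controls. Those higher included Btla, a further inhibitory receptor, with a log2 difference of 3.47 (SE 0.21, limma adjusted p = 0.00043) from 169 and 144 to 2029, 1198 and 1605. The list's median log2 difference was 0.71, and 0.16 without Pdcd1 and Fcgr1.

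Il1r1, the signalling receptor for interleukin-1, read 6.03 and 1.98 in controls and 32.1, 19.9 and 43.9 in deleted cells, at least 3.49-fold higher. Its accessory chain Il1rap was lit in both groups, with a log2 difference of 0.31 (SE 0.28), and the adaptor Myd88 stood at 0.29 (SE 0.13). Neither passed. The decoy receptor Il1r2 varied too widely to separate the groups, with readings of 182 and 29.96 in controls and 84.4, 168 and 384 in deleted cells. Il1a was dark on all 5 arrays. Il1b was above the 40th percentile in deleted 5 alone, at 14.9, and Il1rn in control 3 alone, at 13.8. Il1rl2, which lies next to Il1r1 and encodes a receptor of the same family, was dark in both controls and read 29.9, 16.3 and 60.9, at least 3.55-fold higher. As it passed the filter on dim genes only through the deleted arrays, its call is not used as support, and over the mean of its probes it did not pass (limma adjusted p = 0.278). Of 45 other tested interleukin and TNF family genes 5 were higher and 11 lower, beside 8.58% and 8.74% of all tested genes, with a median log2 difference of -0.06.

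Tspan8 is a tetraspanin, a class of membrane proteins that organise receptors. Its readings were 7.87 and 9.08 in controls and 45.1, 27.4 and 58.4 in deleted cells, at least 4.77-fold higher. Control 6 came nearer to the dark limit than any other control reading of the 27 when set against its own array's limit. Ptpro, a receptor-type tyrosine phosphatase known from kidney podocytes, read 3.37 and 2.66 in controls and 42.4, 39.95 and 48.8 in deleted cells, at least 5.00-fold higher, with all deleted arrays within 1.20-fold after scaling. Its other probes gave log2 differences of 0.17 and 0.26. They stayed dark in all but 1 reading.

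**Figure D2:**
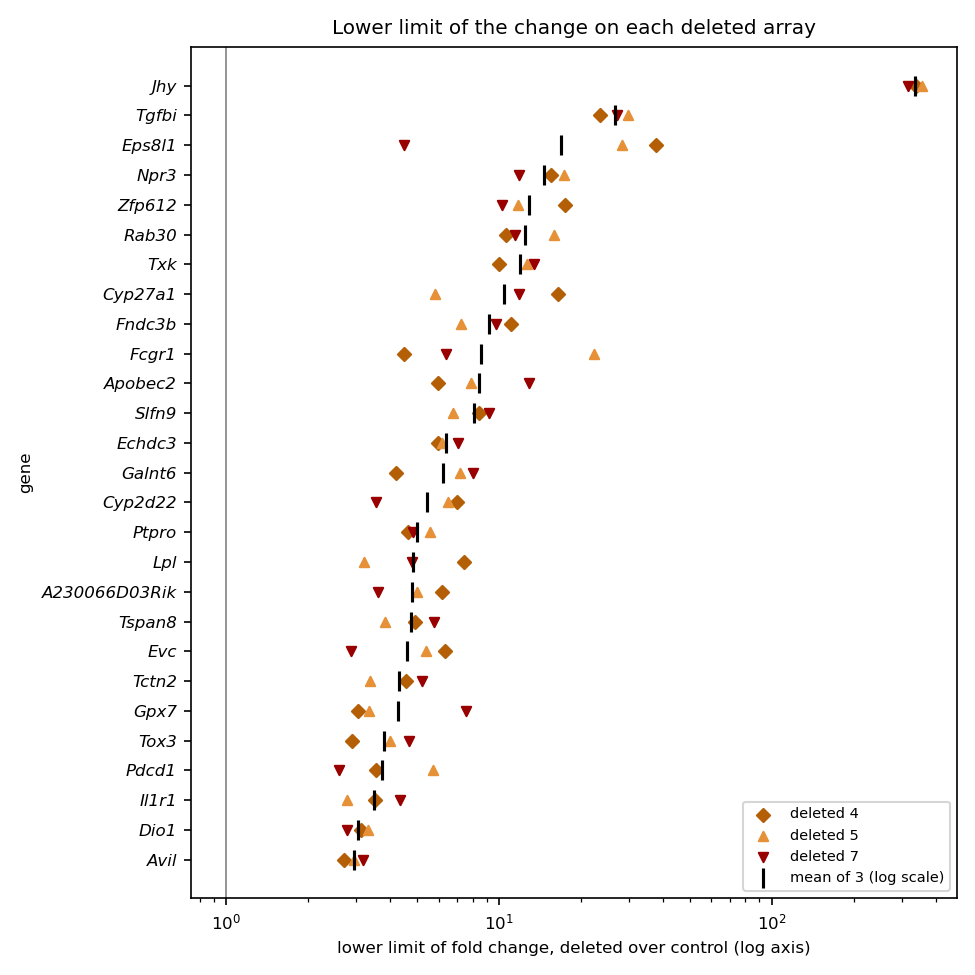
Lower limit of the fold change over the control arrays' 40th percentile (log axis), for each of the 3 deleted arrays and for their mean on the log scale. Jhy lies at 336-fold, Eps8l1 has the widest range between arrays and Avil the smallest limit.

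Secreted and peptide-binding proteins were led by Tgfbi, a matrix protein induced by TGF-beta that binds integrins. It read 3.20 and 5.69 in controls and 215, 214 and 274 in deleted cells, at least 26.7-fold higher. The deleted arrays agreed within 1.27-fold after scaling. Npr3, the clearance receptor for natriuretic peptides, read 3.41 and 8.61 in controls and 142, 124 and 119 in deleted cells, at least 14.7-fold higher. Npr3 had 3 other probes: 1 went from dark to lit, 1 was dark in controls and above the 40th percentile, but not always the median, in deleted cells, and the probe for AK040677 was above the 40th percentile in controls, at 14.7 and 12.9. By that probe Npr3 was not dark in controls. Npr2, a signalling receptor of the same receptor family, had a log2 difference of 1.92 (SE 0.34, limma adjusted p = 0.0137). That call was lost over the mean of its probes (limma adjusted p = 0.0868) and without control 3, where the difference was 1.84. Npr1 was above the 40th percentile in control 3 alone, at 13.0, and was not tested.

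Stromal cells of the feeder layer express many matrix genes, so the stromal list was read beside these results. Of its 24 genes 16 were tested, 1 was higher and 1 lower, beside 8.58% and 8.74% of all tested genes, and the median log2 difference was 0.47. The summed level of the list was 17.7 to 18.4 in controls and 15.7 to 23.2 in deleted cells. Without its brightest gene, Acta2, it was 8.50 to 9.53 in controls and 6.16 to 8.67 in deleted cells. The part of such cells in the Tgfbi and Npr3 readings was not tested.

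Enzymes of lipid, hormone and redox metabolism formed the next group. Cyp27a1, the mitochondrial sterol 27-hydroxylase, read 5.76 and 5.10 in controls and 151, 41.9 and 119.9 in deleted cells, at least 10.5-fold higher, with deleted 5 lowest. Lpl, the lipase that hydrolyses triglycerides of lipoproteins, read 7.17 and 7.45 against 68.0, 22.9 and 48.5, at least 4.85-fold higher, again with deleted 5 lowest. A second Lpl probe stayed dark in deleted 5 and deleted 7. Among other lipases, Lipe had a log2 difference of 1.00 (SE 0.25, limma adjusted p = 0.0412), a call lost under 7 of the alternatives, and Lipa one of 0.63 (SE 0.17, limma adjusted p = 0.0506).

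Echdc3, a mitochondrial protein with an enoyl-CoA hydratase domain, read 8.32 and 7.87 in controls and 54.6, 44.3 and 71.2 in deleted cells, at least 6.38-fold higher. Cyp2d22, a cytochrome P450, read 4.19 and 4.12 against 64.0, 46.5 and 35.9, at least 5.44-fold higher. Its other probes were both dark in controls and above the 40th percentile in every deleted array, highest in deleted 4 at 49.4 and 51.9. Genes of this P450 family are similar in sequence, and their probes may share signal.

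Dio1, the type 1 deiodinase that acts on thyroid hormone, read 8.99 and 4.18 in controls and 28.4, 23.7 and 28.04 in deleted cells, at least 3.05-fold higher. The type 2 enzyme Dio2 went the other way, from 81.2 and 89.6 to 6.22, 5.14 and 4.02, dark on all deleted arrays and at least 9.16-fold lower. It passed the filter on dim genes only through the controls, so its call is not used as support. Dio3 was dark on all 5 arrays. Gpx7, a peroxidase of the endoplasmic reticulum, read 2.59 and 1.95 in controls and 27.8, 24.0 and 76.7 in deleted cells, at least 4.26-fold higher, with deleted 7 clearly above the other arrays. Its relative Gpx1 had a log2 difference of 0.81 (SE 0.17, limma adjusted p = 0.0228), lost under 5 of the alternatives. Gpx4 and Gpx8 did not pass.

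Proteins of membrane traffic and glycosylation were also present. Rab30, a small GTPase of the Golgi, read 4.28 and 6.10 in controls and 97.1, 114 and 116 in deleted cells, at least 12.5-fold higher. Galnt6, an enzyme that starts mucin-type sugar chains, read 4.22 and 7.32 against 38.1, 51.4 and 80.9, at least 6.21-fold higher. Its second probe was dark in controls and above the 40th percentile only in deleted 5, barely, at 7.59, and in deleted 7, at 12.8. Fndc3b, a fibronectin type III protein first known from fat cell differentiation, read 6.28 and 7.82 against 101, 52.0 and 98.1, at least 9.21-fold higher. One further Fndc3b probe went from dark to lit at 54.5, 33.7 and 48.5, whereas the probe for AK045099 was dark on all arrays. Fndc3a and Fndc3c1 had log2 differences of 0.09 and 0.03.

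The remaining genes act on nucleic acids or have no role that is sure. Zfp612, a zinc finger protein, read 4.10 and 2.54 in controls and 160.0, 84.2 and 104 in deleted cells, at least 12.8-fold higher. Tox3, a high mobility group box protein, read 3.26 and 5.20 against 26.4, 28.5 and 47.3, at least 3.77-fold higher, while Tox was dark on all 5 arrays and Tox4 was bright in both groups. Apobec2, a muscle-enriched member of the cytidine deaminase family, read 4.31 and 4.96 against 54.6, 56.6 and 129.9, at least 8.46-fold higher, with deleted 7 highest. Apobec1 and Apobec3 had log2 differences of -0.24 and -1.91 and did not pass. A230066D03Rik, known by its cDNA name, read 3.98 and 2.47 against 56.7, 35.8 and 36.2, at least 4.81-fold higher.

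Slfn9 belongs to the Schlafen family, which is expressed in lymphocytes and responds to interferon in several members. It read 7.59 and 6.92 in controls and 77.1, 48.7 and 93.0 in deleted cells, at least 8.08-fold higher. Among other Schlafen genes, Slfn2 had a log2 difference of 1.83 (SE 0.24, limma adjusted p = 0.0055) and Slfn8, the next gene to Slfn9, one of 1.85 (SE 0.37, limma adjusted p = 0.0204). The Slfn8 call was lost without scaling, without either control and without deleted 4, with adjusted p from 0.0564 to 0.0801. Slfn3 and Slfn5 did not pass, and Slfn1, Slfn4 and Slfn14 were dark on all 5 arrays. Schlafen genes, too, are close in sequence and may share signal. Of 22 tested interferon-stimulated genes 3 were higher and 1 lower, beside 8.58% and 8.74% of all tested genes, with a median log2 difference of 0.21.

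**Figure D3:**
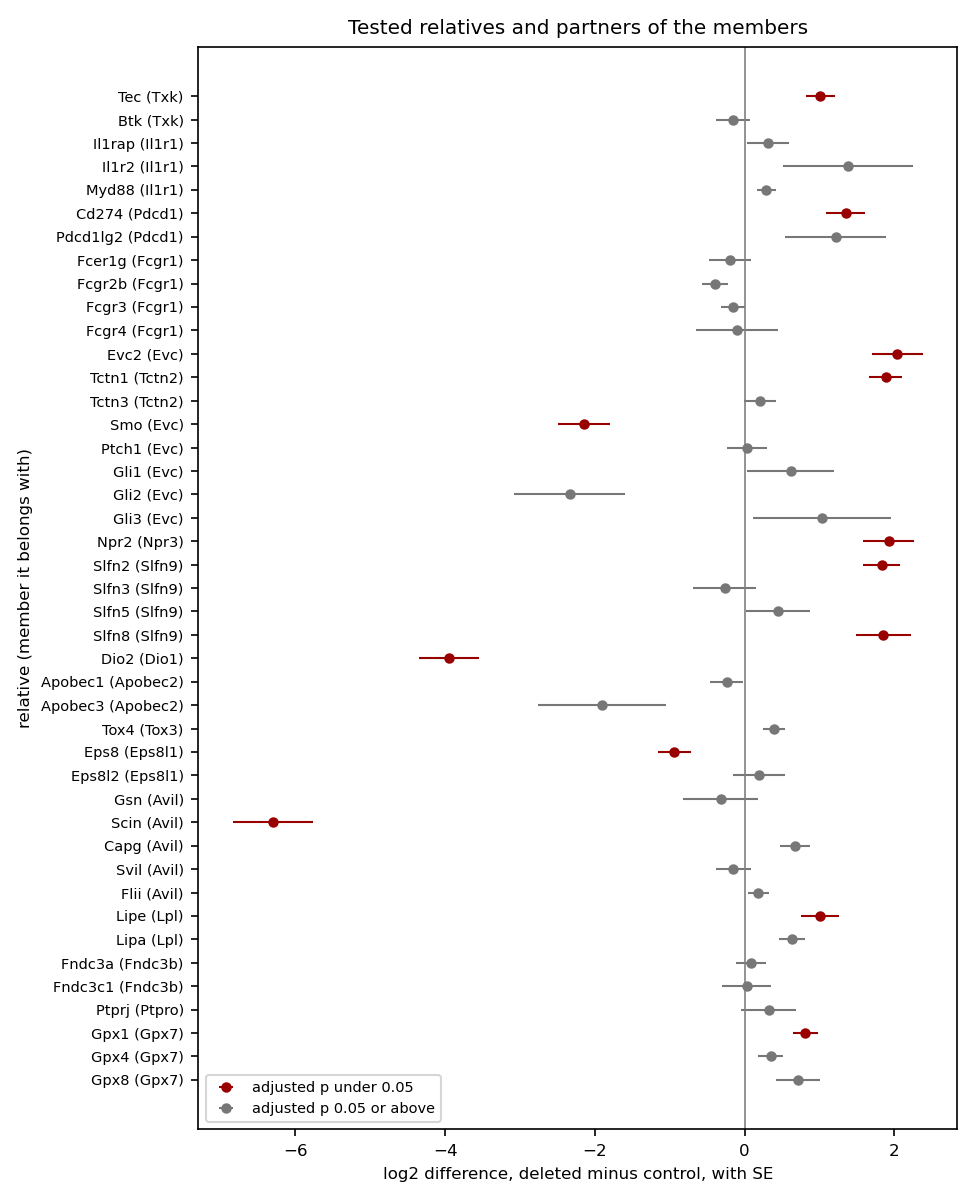
Log2 difference (deleted minus control) with SE from the limma fit for 43 tested relatives and partners, each with the member it belongs to in brackets. Of these, 9 were higher and 4 lower at an adjusted p under 0.05, and the values for Dio2 are measured ones although it was dark on all deleted arrays.

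The relatives and partners are a selection, drawn up after the values had been seen, and they do not cover every family in full or every one of the 27 genes. Of 63 listed, 57 had a named probe and 43 could be tested, of which 9 were higher and 4 lower, or 9 and 3 without Dio2, beside 8.58% and 8.74% of all tested genes. On 25 lists of cell type markers and gene groups the 27 genes appear on 4, those of macrophages, Fc and paired receptors, interleukins with TNF, and cilia. Among B-lineage markers, 0 of 19 tested early B cell genes were higher and 13 lower, and of 26 tested mature B cell genes 16 were higher and 3 lower, against the same shares of all tested genes.

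**Figure D4:**
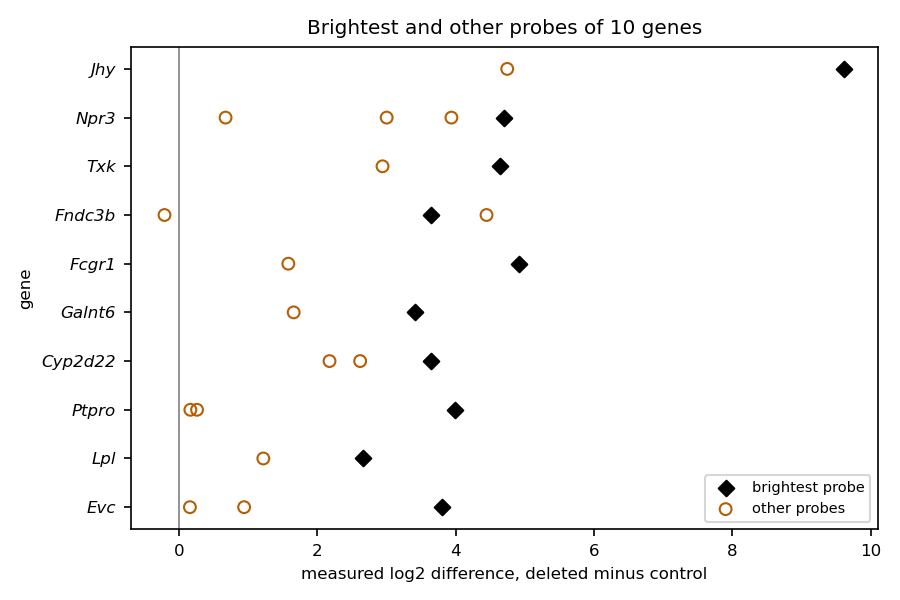
Measured log2 difference (deleted minus control) of the brightest probe and of every other probe for the 10 genes with several probes. In 15 of 16 cases the other probe lay above 0, and the Jhy, Fndc3b and Npr3 genes each had another probe that went from dark to lit.

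Other probes were available for 10 of the 27 genes, 16 in all, and 17 genes rest on 1 probe. Of the 16, 15 were dark on both controls, the exception being the Npr3 probe named above. In deleted cells 3 of these 15 were lit on every array, for Jhy, Fndc3b and Npr3, and 7 were above the 40th percentile on every array. There were 4 that stayed dark on all 5 arrays. They were both further Evc probes, the AK045099 probe of Fndc3b and the AK045929 probe of Ptpro. The measured difference was positive for 15 of 16. The transcript positions of these probes were not determined.

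The 27 genes varied among the deleted arrays without following 1 array. In deleted 4, 5 and 7, their median scaled log2 level stood at -2.78, -2.79 and -2.74. Deleted 4 was the highest array for 8 genes, deleted 5 for 8 more and deleted 7 for 11. The ratio of the highest to the lowest deleted array had a median of 1.57. It was under 2 for 19 genes and over 4 for Eps8l1 and Fcgr1.

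Position was not part of the choice. The platform's gene IDs placed 26 of the 27 on 14 chromosomes, and no member was the nearest tested neighbour of another. Of 52 nearest tested neighbours, 6 were higher and 3 lower, or 5 and 3 without Il1rl2, which was dark in both controls, with a median log2 difference of 0.24, against 8.58% and 8.74% of tested genes and a median of 0.10. The 6 were Tec beside Txk, Evc2 beside Evc, Slfn8 beside Slfn9, Il1rl2 beside Il1r1, H2bc18 beside Fcgr1 and Coa7 beside Gpx7. In the first 4 of these the neighbour belongs to the same family or complex as the member. Other neighbours of the same family did not pass. Il1r2 beside Il1r1, Slfn5 beside Slfn9 and Cyp2d10 beside Cyp2d22 had log2 differences of 1.38 (SE 0.87), 0.45 (SE 0.43) and 0.68 (SE 0.38). The Tec, Evc2 and Slfn8 calls were each lost under some of the alternatives, and the Il1rl2 call is not used as support. H2bc18, a histone gene, had a log2 difference of 4.36 (SE 0.67), with readings of 23.9 and 37.7 in controls and 789, 924 and 244 in deleted cells, a call lost without control 3 (limma adjusted p = 0.0623). The Coa7 call was lost under 5 of the alternatives, with limma adjusted p from 0.0591 to 0.174. The 3 lower neighbours were Lgr5, Ddias and Eps8.

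Promoters were taken from RefSeq on GRCm38.p6, 250 bases before to 50 after a start, and were found for 22 of the 27 genes, with 29 starts in all. A230066D03Rik, Cyp2d22, Lpl, Rab30 and Zfp612 had none there. On either strand, 0 of the 29 held the palindrome known for EBF factors (TCCC, then NN, then GGGA), which is in 0.904% of all 32851 promoters. The IRF repeat (GAAA, then NN, then GAAA) was in 3 of 29 (10.3%), against 3.44% of all promoters. These are the Tgfbi, Eps8l1 and Slfn9 sequences shown above, with matches starting 194, 215 and 45 bases before the start, and none of the matches overlapped another motif searched. The AP-1 letters TGANTCA were in 1 of 29, the Jhy sequence, against 7.81%, and the C/EBP letters TTGCNNAA in 4 of 29 (13.8%), against 10.8%. The E-box CAGNTG was in 37.9% against 51.4%, the ETS core GAGGAA in 27.6% against 28.3%, the Runx letters TGTGGT in 13.8% against 16.8%, TATAAA in 10.3% against 13.6% and CCAAT in 37.9% against 37.4%. A base composition like that of a CpG island (GC over 50% and an observed to expected CpG ratio over 0.6) was found in 7 of 29 (24.1%), against 33.3% of all promoters. Among the 18827 promoters of genes on the array, from which the 27 were drawn, that share was 49.0%. The 7 belong to Eps8l1, Fndc3b, Galnt6, Gpx7, Jhy, Tgfbi and Tox3. For Jhy it is the promoter of another start, not the sequence shown above. These counts are descriptions of letters in a window and were not tested.

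Genes near the limits show how narrow the choice is. The controls nearest below the dark limit were those of Tspan8, Dio1 and Pdcd1, whose higher control lay at 0.956, 0.936 and 0.930 of its array's 40th percentile. Just outside, Slc16a10, an amino acid transporter, stood at 1.00 times the limit in control 3, with readings of 9.62 and 2.97 in controls and 197, 130.3 and 131 in deleted cells. Egr3 and Epas1 followed at 1.02 and 1.10 times the limit. At the other limit, the lowest deleted array was 1.04 times the median for Pdcd1, 1.05 for Il1r1 and 1.07 for Avil. Cyp2r1, Rtn4rl1 and Bcl2a1c fell short of it, at 0.999, 0.981 and 0.969 of the median.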

How the data were processed

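The authors deposited 1 intensity per array feature for 5 arrays, on a linear scale and the submitters' processing notes name Agilent Feature Extraction; the sources used here state neither its version nor its background handling. The table holds 45018 features, of which 33653 have 1 gene symbol in the platform annotation, 56 several and 11309 none. The table marks no control spots, so all features entered the percentiles. The sum of intensities per array stands in for depth, and the number of arrays limits the precision. Deposited intensities were put on the log2 scale less the array's own 75th percentile. Each gene was represented by its brightest probe, and genes above the 40th percentile on at least 2 of 5 arrays were tested. A two-sided linear model with moderated variances and an intensity trend (limma 3.58.1, R 4.3.3) compared 3 deleted with 2 control arrays, with Benjamini-Hochberg adjustment over 13419 genes and a threshold of 0.05. The fit was tested on simulated data. Every adjusted p is from this fit. The 40th percentile stands in for detection flags. The named genes are all members, the nearest genes on each side of the limits and, chosen after their values were seen, relatives, neighbours and examples from 25 lists. The members and lists were chosen with earlier results of these data known. Alternatives were other limits, scalings, filters, probes and variance settings, and leaving out each array. A gene's neighbours and promoters came from RefSeq tables on GRCm38.p6.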

Additional observations from a re-analysis of the deposited data

Results flagged for a closer look

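Among the 11309 features without a gene symbol in the platform annotation, 3 were also dark on both control arrays and lit on all 3 deleted arrays. Among genes, read by their brightest probe, 30 of 19087 met the same limits. The 3 features lie outside the measurements described above. That they read above the control level follows from the limits that picked them. Their control readings were 5.02 and 4.29, 3.96 and 5.82, and 6.31 and 7.57. In deleted 4, 5 and 7 the first read 46.0, 37.7 and 52.6, the second 38.3, 41.3 and 51.5 and the third 56.8, 45.7 and 55.5. Groups of 2 and 3 arrays are too small for a check of outlying samples.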

How the results depend on the processing

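The number of genes that met the limits depended on the limits: 6 with the dark limit at the 30th percentile, 161 with it at the median, 6 with the lit limit at the 60th percentile and 155 with it at the 40th, against 27. Leaving out 1 array gave 33 to 52, with 47 without control 3 and 52 without control 6, as fewer arrays make fewer demands. With percentiles over features with 1 symbol 30 genes met the limits, 14 of them among the 27. The median of the probes gave 27 (21 shared), the probe brightest in controls 23, and requiring every probe to be dark in controls, chosen after seeing the data, 26, which left out Npr3. The genes called by limma fell from 2324 to between 703 and 2009 when 1 array was left out, with 703 without control 3, 1449 without control 6, 1416 without deleted 4 and 1274 without deleted 5; the lone control is then assumed to vary like the deleted group. Of the 27, 11 could be tested with the filter at the 60th percentile. All 11 were called, beside 1142 of 9927 tested genes called higher. Nothing is read from this because the rule used the same contrast. The median lower limit on the log2 scale was 2.63, and 2.50 without scaling, 2.69 with median and 2.68 with quantile scaling. It was 2.53 to 2.72 without 1 array, and 3.55 or 1.23 with the 30th percentile or the median as the detection limit. The last 2 values follow from the calculation, which subtracts the detection limit: lowering it can only raise the result and raising it can only lower it. The cause of the other shifts was not tested. Of 216 recomputed limits of single genes 212 moved by less than the spread between deleted arrays, 4 moved by more and 0 changed sign. The rule fixes the sign. Leaving out 1 deleted array cannot move the mean of 3 by more than that spread, and leaving out a control changes only the shared floor. Nothing is therefore read from these counts. No paired analysis was possible because the groups share no sample numbers. The weakest signals, near the array medians, limit what can be said of Avil, Dio1, Il1r1 and Pdcd1.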
